A study of Mus musculus with 20 samples.

Results

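The transcripts described here are 7 spliced noncoding hosts of small nucleolar RNAs (snoRNAs), namely Gas5, Snhg1, Snhg3, Snhg5, Snhg6, Snhg8 and Snhg12. They were chosen by name, with earlier results of these data known. All 7 were found among the 23284 genes of the deposited data and passed the filter on low counts that kept 13710 genes. Their levels were measured by RNA immunoprecipitation followed by sequencing (RIP-Seq) in mouse embryonic stem cells (ESCs), in which an anti-Flag antibody was used to recover RNA bound to a tagged Tet protein from cytoplasmic extract (IP) and total RNA served as input. The Tet enzymes oxidise 5-methylcytosine, and the study asked which RNAs Tet1 and Tet2 bind and whether binding by Tet2 depends on its RNA-binding domain (RBD).

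There were 20 libraries in 10 pairs of an IP and the input of the same replicate number. The Tet1-KI line (2 pairs) carried a triple tag of Flag, HA and Twin-Strep at the C terminus of endogenous Tet1, the Tet2-KI line (4 pairs) carried the same tag on endogenous Tet2, and the Tet2ΔRBD line (4 pairs) carried it on Tet2 without its RBD. All 3 lines were knock-in ESCs picked as clones after editing with a Cas9 nickase and grown in serum with leukaemia inhibitory factor on gelatin, so the tag and the culture were shared by every group and a line cannot be told apart from its clone. IPs from untagged cells and IgG controls were not analysed here. The paper states at least biological duplicates for RIP-Seq, but the labels do not say which replicates came from separate cultures. The p-values thus measure only the spread between these libraries. Library totals ranged from 21078995 to 37576638 expected counts. The pluripotency markers Pou5f1, Nanog, Sox2, Zfp42 and Esrrb summed to between 2821 and 4030 TPM (transcript abundance per length, scaled to a fixed total) in every library, against 4.62 to 30.5 for 4 fibroblast genes and 2.92 to 77.9 for 5 genes of differentiated lineages. In the inputs Pou5f1 alone was at 2000 to 3191 TPM and Zfp42 at 15.3 to 75.8 TPM. Of the differentiated genes, Gata4 ranged from 1.99 to 43.7 TPM and Sox17 from 0.85 to 19.0 TPM, while T, Foxa2 and Pax6 stayed at 5.16 TPM or less.

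Most vertebrate snoRNAs are cut from the introns of longer genes. Box C/D snoRNAs guide ribose methylation and box H/ACA snoRNAs guide pseudouridylation, mainly of ribosomal RNA. In the noncoding hosts the exons join into a spliced RNA with little coding capacity, and several of these RNAs are known to begin with a run of pyrimidines like that of ribosomal protein mRNAs, to be exported, and to be short-lived because translation of brief reading frames marks them for nonsense-mediated decay.

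The starts of the host transcripts are shown because this pyrimidine run is the feature for which the family is known. RefSeq starts on build GRCm38.p6 were available for 6 of the 7 hosts, with 2 for Gas5. Each line runs 5′ to 3′ on the strand of the gene, from 20 bases before to 30 bases after the start of the transcript, and capitals mark the longest run in that window that opens with C and holds only C or T.
Gas5, upstream start, chr1:161034581-161034630 (+): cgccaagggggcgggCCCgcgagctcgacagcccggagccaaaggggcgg
Gas5, downstream start, chr1:161035146-161035195 (+): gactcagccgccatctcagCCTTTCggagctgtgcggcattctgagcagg
Snhg1, chr19:8723467-8723516 (+): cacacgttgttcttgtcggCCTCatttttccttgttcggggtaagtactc
Snhg3, chr4:132353657-132353706 (-): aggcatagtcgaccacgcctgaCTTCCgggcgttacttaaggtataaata
Snhg5, chr9:88522868-88522917 (-): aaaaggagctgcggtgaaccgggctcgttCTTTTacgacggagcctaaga
Snhg8, chr3:123508307-123508356 (-): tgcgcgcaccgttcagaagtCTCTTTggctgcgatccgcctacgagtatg
Snhg12, chr4:132308658-132308707 (+): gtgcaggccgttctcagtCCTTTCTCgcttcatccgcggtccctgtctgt
The run spanned or touched the annotated start in Snhg12, in Snhg1, in Snhg8 and at the downstream start of Gas5. It was longest in Snhg12, with 8 bases, and 14.9% of the 32851 promoter entries in the table held a run at least as long in the same window. Runs of 6 bases, as in Snhg8 and Gas5, or longer stood in 34.3% of the entries and runs of 5 bases, as in Snhg3 and Snhg5, or longer in 52.3%, so that runs of this size were common among promoters in general. These shares count runs anywhere in the window, so they cannot say how common a run at the start itself is.

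The position and the content of the hosts were read from GENCODE vM1 on the genome build of the deposited values, mm9, which named 5 of the 7. Gas5 (chr1:162964553-162968670, + strand) held 9 annotated snoRNA genes and Snhg1 (chr19:8797986-8800932, + strand) held 8. Snhg12 (chr4:131864593-131866939, + strand) held 4, while Snhg3 (chr4:131903929-131909601, - strand) and Snhg5 (chr9:88415894-88417721, - strand) held 2 each. All but Snhg3, a processed transcript, were annotated as lincRNAs. The RefSeq models behind the deposited values were short, between 407 bases for Snhg6 and 1010 bases for Snhg5, with the exception of Gas5. Its model had 2554 bases, close to a GENCODE transcript of 2556 bases in which 6 of the 9 snoRNA genes lie in exons, whereas the median of its 25 GENCODE transcripts was 629 bases. The TPM of Gas5, which is per length, therefore rests on a model that keeps intron sequence. The model of Snhg12, with 606 bases, was nearest in length to a GENCODE transcript of 614 bases. In that transcript 1 snoRNA gene, Snora44 with 129 bases, lies in an exon and 3 lie in introns.

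The snoRNAs themselves were hardly measured. Of 26 snoRNA genes that RefSeq places within the 7 hosts, 8 were listed in the deposited data, and 4 had a median input of at least 1 TPM (Snord22 in Snhg1, Snord87 in Snhg6, and Snora16a and Snora44 in Snhg12). The highest expected count of any of them in any library was 46, for Snord22. The results below are those of the host models, and the model of Gas5 keeps intron sequence.

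In input, the hosts were well expressed, each above the mean level of at least 90.7% of all genes. Snhg1, the host of the U22 snoRNA and a series of box C/D guides, was highest at 281 ± 99.0 TPM (SD, n = 10 inputs), with a lowest value of 116, a median of 326 and a highest of 386. Snhg3, which carries box H/ACA snoRNAs of the U17 family, followed at 189 ± 83.3 TPM, and Snhg6 at 174 ± 84.5 TPM. Both covered a wide range, from 82.7 to 321 TPM with a median of 205 in Snhg3 and from 52.3 to 283 TPM with a median of 194 in Snhg6. Snhg12 was at 110 ± 23.2 TPM and was the steadiest, with values of 74.0 to 145 TPM and a median of 112. Gas5, known for its rise in growth-arrested cells and for binding the glucocorticoid receptor, was at 89.5 ± 38.0 TPM (34.8 to 133, median 106), Snhg8 at 83.0 ± 22.9 TPM (53.2 to 115, median 83.6) and Snhg5 at 59.0 ± 24.7 TPM (18.2 to 90.5, median 65.1).

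The order of these means was firm only in places. Within libraries, Snhg1 exceeded Snhg3 in 10 of 10 inputs, by 0.61 ± 0.47 (SD) on the log2 TPM scale, and Snhg8 exceeded Snhg5 in 9 of 10, by 0.60 ± 0.52. The 4 steps between Snhg3, Snhg6, Snhg12, Gas5 and Snhg8 were smaller than the SD of their log2 ratio, and the step from Gas5 to Snhg8 was 0.01 ± 0.77.

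Much of the spread followed the library sets, which the file numbering shows and the labels leave unstated. Replicates 1 of Tet2 and Tet2ΔRBD formed a set, replicates 2 formed another, and the Tet1 libraries shared a set with replicates 3 and 4. Snhg6 input was 268 and 283 TPM in the first of these sets, 52.3 and 60.1 in the second and 103 to 240 in the third. Gas5 was likewise lowest in the replicates 2, at 34.8 and 35.8 TPM, against 125 and 133 in the replicates 1 and 54.8 to 122 in the remaining libraries. Within the third set the lines differed as well. The Tet1 inputs there were at 64.7 and 54.8 TPM for Gas5 and 122 and 103 TPM for Snhg6. The Tet2 and Tet2ΔRBD inputs were at 103 to 122 TPM for Gas5 and 188 to 240 TPM for Snhg6. Snhg3 took another order, with 82.7 to 110 TPM in both early sets and 203 to 321 in the third. Every ratio below sets an IP against its own input and was thus formed within a set. Replicates 3 and 4 of a line were also far closer to each other than to the rest. Their counts differed by a mean chi-square per gene of 2.69 to 16.1 in the IPs and inputs of Tet2 and Tet2ΔRBD, against 132 to 527 between all other numbers of a group. The 4 pairs of these lines are thus not equally far apart, and fits with replicates 3 and 4 merged are named where they change a call.

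**Figure D1:**
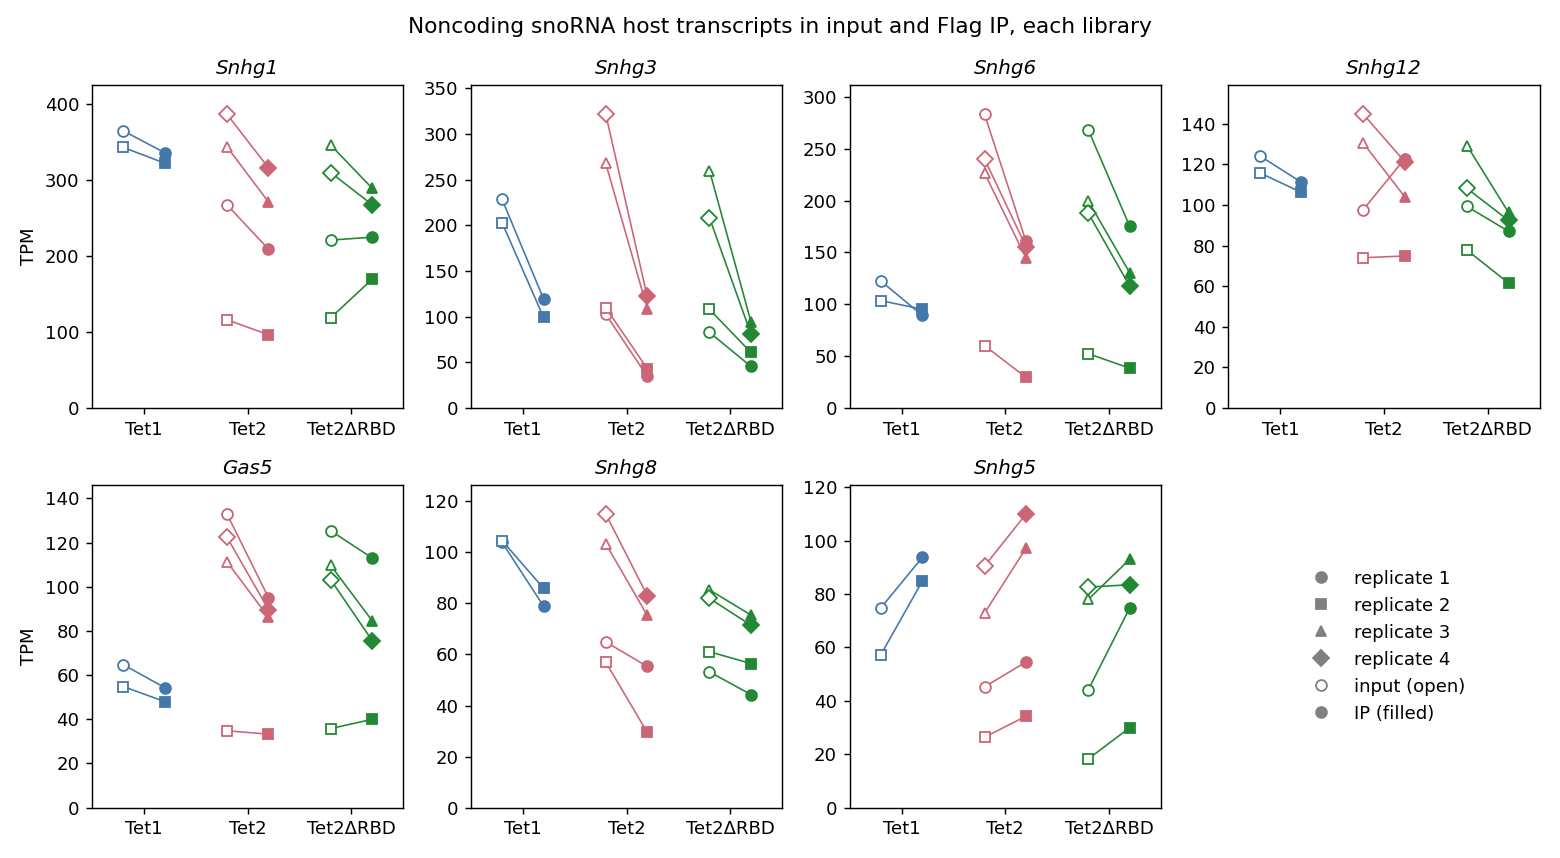
TPM (vertical axes, from 0) of each host in input (open symbols) and IP (filled symbols) of the 3 lines, with a line joining each pair and the symbol shape giving the replicate number. Snhg3 was lower in IP in all 10 pairs, Snhg5 was higher in IP in all 10 pairs, and the replicates 2 of Tet2 and Tet2ΔRBD (squares) were low in both IP and input for Gas5, Snhg1, Snhg5 and Snhg6.

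No difference in the input level of a host between the Tet2ΔRBD and the Tet2 line passed the test. In edgeR's quasi-likelihood test on the 10 inputs, 0 of 7 hosts and 0 of 13310 genes passed an adjusted p of 0.05 (background 0%), 0 of 7 hosts and 340 genes (2.55%) had an unadjusted p under 0.05, and DESeq2 called 0 of 7 hosts and 16 genes. The fitted log2 differences of the hosts, Tet2ΔRBD minus Tet2, lay between -0.31 for Snhg3 and -0.11 for Snhg5. Their 95% intervals were unequal, from -1.50 to 1.04 for Snhg6 and from -0.76 to 0.50 for Snhg12. Inputs of the same replicate number varied together in the Tet2 and Tet2ΔRBD lines, and a replicate block on these 8 inputs narrowed the intervals. With it, 0 of 7 hosts and 5 genes (0.0376%) passed an adjusted p of 0.05 by edgeR, and 0 of 7 hosts against 12.6% of tested genes had an unadjusted p under 0.05. Within numbers, the TPM of Snhg3 and of Snhg6 was lower in Tet2ΔRBD than in Tet2 in 4 of 4 comparisons, a pattern of 10.8% of tested genes. The blocked log2 differences were -0.26 for Snhg3 (95% interval -0.71 to 0.19, edgeR adjusted p = 0.52) and -0.21 for Snhg6 (-0.54 to 0.11, adjusted p = 0.45). The intervals of the other 5 hosts lay between -0.70 and 0.31. In bulk samples of this kind, fewer cells that express a transcript and less of it per cell cannot be told apart.

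The comparison of IP with input asked whether the hosts were recovered with the tagged protein. Most of them were below their input in most pairs. In TPM, 4 to 6 of the 7 hosts were below input in each of the 10 pairs, where 22.6% to 46.7% of the tested genes were. In Tet2 5 of 7 hosts were below input in all 4 pairs (11.9% of tested genes), in Tet2ΔRBD 4 of 7 (8.56%) and in Tet1 6 of 7 in both pairs (30.1%). The median log2(IP/input) over the 7 hosts, from TPM with 1 added, was -0.19 ± 0.09 (SD, n = 2 pairs) in Tet1, -0.36 ± 0.07 (n = 4) in Tet2 and -0.22 ± 0.11 (n = 4) in Tet2ΔRBD. The median over all tested genes was 0.08 ± 0.04, 0.21 ± 0.10 and 0.17 ± 0.10 in the same lines, and that over 503 other genes with noncoding RefSeq models was -0.03 ± 0.02, -0.04 ± 0.05 and 0.00 ± 0.08. The host median lay below the median of all genes and below that of the noncoding genes in 10 of 10 pairs. Neither set was matched to the hosts for level, and adding 1 to TPM pulls the ratios of low genes toward 0. A TPM ratio above 0 in the middle gene means that TPM and the scaling of the count model (TMM, which sets the middle gene near 0) differ. The fitted ratios below are on the TMM scale. For the hosts they lay below the TPM ratios by more than the shift of the middle gene. In Tet2, for example, Gas5 was at -0.34 in TPM and -0.66 in the fit, and Snhg12 at -0.06 and -0.38. This offset was not particular to the hosts. In the same line Pou5f1 was at 0.06 in TPM and -0.25 in the fit, and Nanog at -0.86 and -1.19.

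Since the IP was made from cytoplasmic extract and the input from total RNA, the nuclear noncoding RNAs Malat1, Neat1, Meg3, Kcnq1ot1 and Xist were read beside the hosts. Their summed level was 46.1 to 113 TPM in IP and 58.8 to 156 TPM in input, most of it Neat1 and Meg3, with Xist at 0.02 TPM or less in the inputs. Of the 4 that passed the filter, 0 were called lower in Tet1 (3.18% of tested genes), and 0 were higher in any line. In Tet2 1 was called lower, Neat1 (edgeR adjusted p = 0.044, against 18.5% of tested genes). In Tet2ΔRBD it was another gene, Meg3 (edgeR adjusted p = 0.042, against 12.1%). The median log2(IP/input) over pairs was -0.67 for Neat1, -0.33 for Meg3 and 0.05 for Malat1. The part of nuclear retention in the values of the hosts was not tested.

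In the edgeR quasi-likelihood fit, with p-values adjusted over 13710 genes, 6 of 7 hosts were lower in Tet2 IP than in input, all but Snhg5, where 18.5% of tested genes were called lower. In Tet2ΔRBD 5 of 7 were lower, namely Snhg3, Snhg6, Snhg12, Gas5 and Snhg8, against a background of 12.1%. In Tet1, with 2 pairs, 1 of 7 was lower, Snhg3, against 3.18%. None of the hosts was called higher in any line, where 14.6%, 7.4% and 2.72% of tested genes were called higher in Tet2, Tet2ΔRBD and Tet1. The median fitted log2 ratio of the hosts was -0.66 in Tet2, -0.48 in Tet2ΔRBD and -0.37 in Tet1, against 0.00, -0.01 and -0.04 over all tested genes. The counts in Tet2 and Tet2ΔRBD depended on pairing each IP with its input, since without the pair block 0 of 7 hosts passed in each line.

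**Figure D2:**
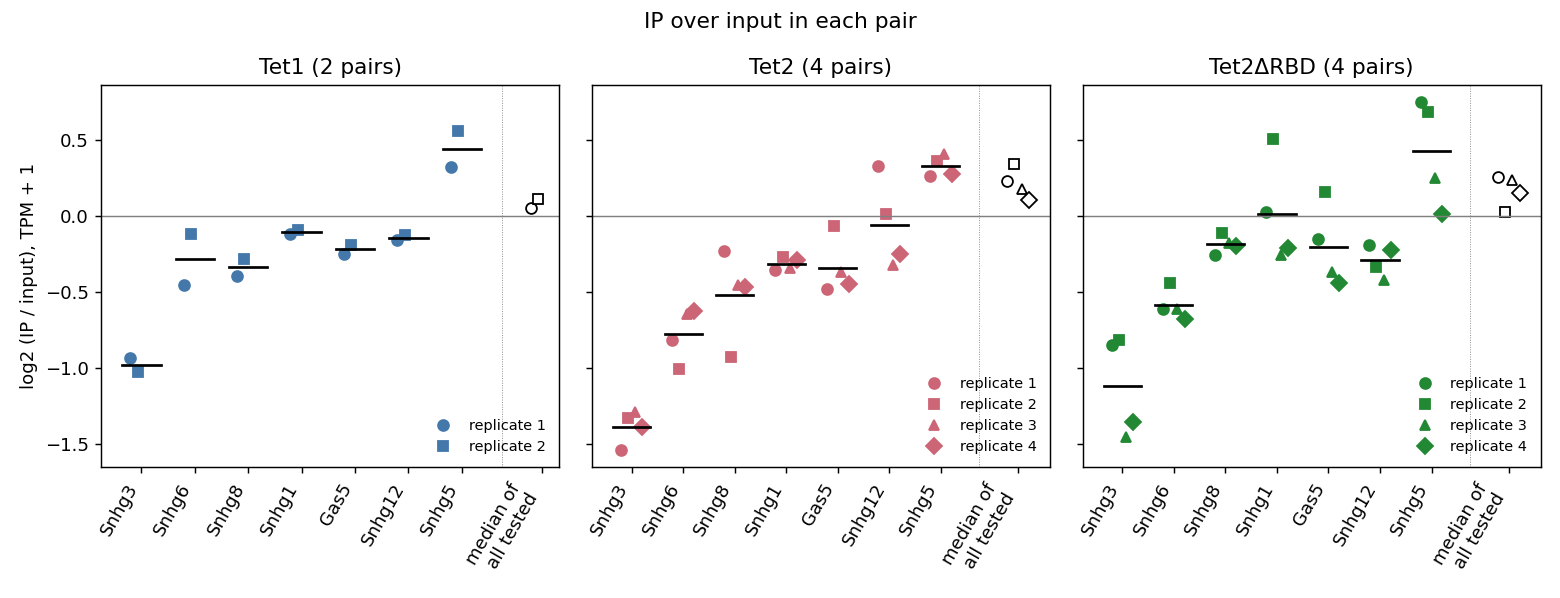
log2(IP/input) from TPM + 1 (vertical axis) of each host in each pair, by line, with black bars at the mean over pairs, and the median of all tested genes as open symbols at the right. Snhg3 lay between -1.54 and -0.82, Snhg5 between 0.01 and 0.75, and the other hosts mostly between these and below the median gene.

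Snhg3 was the most depleted host in every line. In Tet1 its input was 228 and 203 TPM and its IP 119 and 99.1 TPM. In Tet2 the inputs were 103, 110, 268 and 321 TPM for replicates 1 to 4 and the IPs 34.6, 43.0, 109 and 122 TPM. In Tet2ΔRBD the inputs were 82.7, 108, 260 and 208 TPM and the IPs 45.4, 60.7, 94.3 and 80.9 TPM. Each IP was thus at 0.344 to 0.567 times its own input, although inputs and IPs of different sets overlapped. The fitted log2 ratio was -1.72 ± 0.14 (SE) in Tet2 (3.29-fold lower, edgeR adjusted p = 7.8e-05), -1.41 ± 0.14 in Tet2ΔRBD (2.65-fold lower, adjusted p = 0.00042) and -1.13 ± 0.20 in Tet1 (2.19-fold lower, adjusted p = 0.020). In each line at most 0.321% of the tested genes had a lower mean TPM ratio. The Tet1 call was lost when either Tet1 pair was left out (adjusted p of 0.29 and 0.55), with the ratio at -1.24 and -1.03.

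Snhg3 shares its strand and part of its sequence with Rcc1, the guanine nucleotide exchange factor of Ran, and RSEM divides reads that fit both. The first 2 of the 3 exons of the GENCODE transcript of 437 bases, the length used in the deposited values, are shown on mm9, 5′ to 3′ on the minus strand, with capitals on the bases that also lie in annotated Rcc1 exons.
Snhg3 exon 1, chr4:131909512-131909601 (-): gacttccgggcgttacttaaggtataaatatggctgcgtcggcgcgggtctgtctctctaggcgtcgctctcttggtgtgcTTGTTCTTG
Snhg3 exon 2, chr4:131908578-131908613 (-): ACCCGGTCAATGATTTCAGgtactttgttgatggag
The shared bases numbered 28 of 437, and exon 3, with 311 bases, shared none. Rcc1 itself was not called in any line. Its fitted log2 ratio was -0.27 ± 0.13 in Tet2 (adjusted p = 0.13), -0.20 ± 0.13 in Tet2ΔRBD (adjusted p = 0.28) and -0.22 ± 0.18 in Tet1 (adjusted p = 0.51). On the other strand Gm17300, a lincRNA, overlaps 347 of the 437 bases. Whether counting used strand is not given in the sources used here, so reads of Snhg3 and Gm17300 cannot be told apart. Gas5 overlaps the opposite-strand gene Zbtb37, but their annotated exons share no base.

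Snhg6, the host of Snord87, was also below input in 10 of 10 pairs. Its IP stood at 89.2 and 95.2 TPM in Tet1 against inputs of 122 and 103. In Tet2 the IPs were 160, 29.4, 144 and 155 TPM against inputs of 283, 60.1, 227 and 240, and in Tet2ΔRBD they were 175, 38.3, 130 and 117 TPM against 268, 52.3, 200 and 188. In Tet2 and Tet2ΔRBD the low replicate 2 was low in IP and input alike, and leaving it out kept both calls. The fitted log2 ratio was -1.09 ± 0.13 in Tet2 (2.13-fold lower, edgeR adjusted p = 0.00036), -0.87 ± 0.13 in Tet2ΔRBD (1.83-fold lower, adjusted p = 0.0022) and -0.44 ± 0.19 in Tet1 (adjusted p = 0.19).

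Snhg8, which holds the box H/ACA snoRNA Snora24, was the third host below input in every pair, a pattern that 5.59% of tested genes shared. Its IPs were 78.9 and 85.9 TPM in Tet1 (inputs 104 and 105) and 55.3, 29.5, 75.3 and 83.1 TPM in Tet2 (inputs 64.9, 57.0, 103 and 115). In Tet2ΔRBD they were 44.3, 56.4, 75.4 and 71.5 TPM against inputs of 53.2, 61.1, 85.3 and 81.9. The difference was larger in Tet2, most of all in replicate 2, than in Tet2ΔRBD, where each IP was at 0.836 to 0.925 times its input. The fitted log2 ratio was -0.84 ± 0.14 in Tet2 (1.79-fold lower, edgeR adjusted p = 0.0016), -0.46 ± 0.14 in Tet2ΔRBD (1.38-fold lower, adjusted p = 0.039) and -0.49 ± 0.19 in Tet1 (adjusted p = 0.16). The Tet2ΔRBD call lay close to the threshold and was lost without the filter on low counts (adjusted p = 0.061), with replicates 3 and 4 merged (adjusted p = 0.16), by limma on TPM, and when any of 8 of the 10 pairs was left out. In Tet1, Snhg8 passed when Tet2 replicate 2 was left out (adjusted p = 0.039).

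Gas5 and Snhg1, hosts with many box C/D snoRNAs, were lower by smaller amounts. Gas5 IPs were 54.3 and 48.0 TPM in Tet1 (inputs 64.7 and 54.8), 95.1, 33.3, 86.2 and 89.6 TPM in Tet2 (inputs 133, 34.8, 111 and 122) and 113, 40.0, 84.6 and 75.7 TPM in Tet2ΔRBD (inputs 125, 35.8, 110 and 103). Gas5 was below input in 9 of 10 pairs, the exception being Tet2ΔRBD replicate 2, and its fitted log2 ratio was -0.66 ± 0.13 in Tet2 (1.58-fold lower, edgeR adjusted p = 0.0039), -0.48 ± 0.13 in Tet2ΔRBD (1.40-fold lower, adjusted p = 0.027) and -0.37 ± 0.18 in Tet1 (adjusted p = 0.25). The Tet2ΔRBD call was lost without Tet2ΔRBD replicate 1, 3 or 4 (adjusted p of 0.094, 0.12 and 0.075), with replicates 3 and 4 merged (adjusted p = 0.17) and by limma on TPM. The Tet2 call was lost by limma on log2(TPM + 0.1) (adjusted p = 0.053).

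Snhg1 IPs were 336 and 322 TPM in Tet1 (inputs 364 and 343) and 209, 96.3, 271 and 316 TPM in Tet2 (inputs 267, 116, 343 and 386), below input in each of these 6 pairs. In Tet2ΔRBD they were 225, 169, 289 and 267 TPM against inputs of 221, 119, 346 and 310, so that replicates 1 and 2 were above input and replicates 3 and 4 below. The fitted log2 ratio was -0.63 ± 0.15 in Tet2 (1.55-fold lower, edgeR adjusted p = 0.0086), -0.26 ± 0.15 in Tet2ΔRBD (adjusted p = 0.23) and -0.25 ± 0.21 in Tet1 (adjusted p = 0.51). Without Tet2ΔRBD replicate 2 the ratio in that line became -0.48 with an adjusted p of 0.0074, and without Tet2 replicate 1 the Tet2 call was lost (adjusted p = 0.057), as it was by limma on log2(TPM + 1), also with an adjusted p of 0.057.

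Snhg12, which holds box H/ACA snoRNAs and Snord99, was near its input on the TPM scale in Tet2. There the IPs were 123, 74.9, 104 and 121 TPM against inputs of 97.8, 74.0, 131 and 145, above input in replicates 1 and 2 and below it in replicates 3 and 4. In Tet2ΔRBD the IPs were 87.1, 61.6, 96.4 and 92.4 TPM against 99.3, 77.8, 129 and 108, and in Tet1 111 and 106 TPM against 124 and 116, below input in all 6 pairs. The fitted log2 ratio was -0.38 ± 0.11 in Tet2 (1.30-fold lower, edgeR adjusted p = 0.020), -0.57 ± 0.11 in Tet2ΔRBD (1.49-fold lower, adjusted p = 0.0059) and -0.29 ± 0.15 in Tet1 (adjusted p = 0.27). Of these, the Tet2 call was lost by limma on log2(TPM + 1), where the ratio was -0.06 (adjusted p = 0.70), with replicates 3 and 4 merged (-0.30, adjusted p = 0.13), and without Tet2 replicate 2, 3 or 4 (adjusted p of 0.060, 0.099 and 0.065). By limma the Tet2ΔRBD ratio was -0.29 (adjusted p = 0.074).

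Snhg5, which hosts box C/D snoRNAs of the SNORD50 type, stood apart from the other 6. Its IPs were 93.7 and 84.8 TPM in Tet1 (inputs 74.8 and 57.3), 54.6, 34.2, 97.2 and 110 TPM in Tet2 (inputs 45.2, 26.4, 72.9 and 90.5) and 74.8, 29.95, 93.0 and 83.5 TPM in Tet2ΔRBD (inputs 44.1, 18.2, 77.9 and 82.6). The TPM was above input in 10 of 10 pairs, by 1.01 to 1.68 times, which was so for 22.4% of tested genes. Relative to the median expressed gene Snhg5 was above input in 7 of 10 pairs, and the fitted log2 ratio was 0.02 ± 0.14 in Tet2 (edgeR adjusted p = 0.93), 0.16 ± 0.14 in Tet2ΔRBD (adjusted p = 0.44) and 0.30 ± 0.19 in Tet1 (adjusted p = 0.40). The 95% interval of the Tet2 ratio ran from -0.30 to 0.34. In limma on log2(TPM + 1) Snhg5 was called higher in Tet2ΔRBD (0.43, adjusted p = 0.030) and not in Tet2 or Tet1, so whether Snhg5 was above its input depended on the scale.

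**Figure D3:**
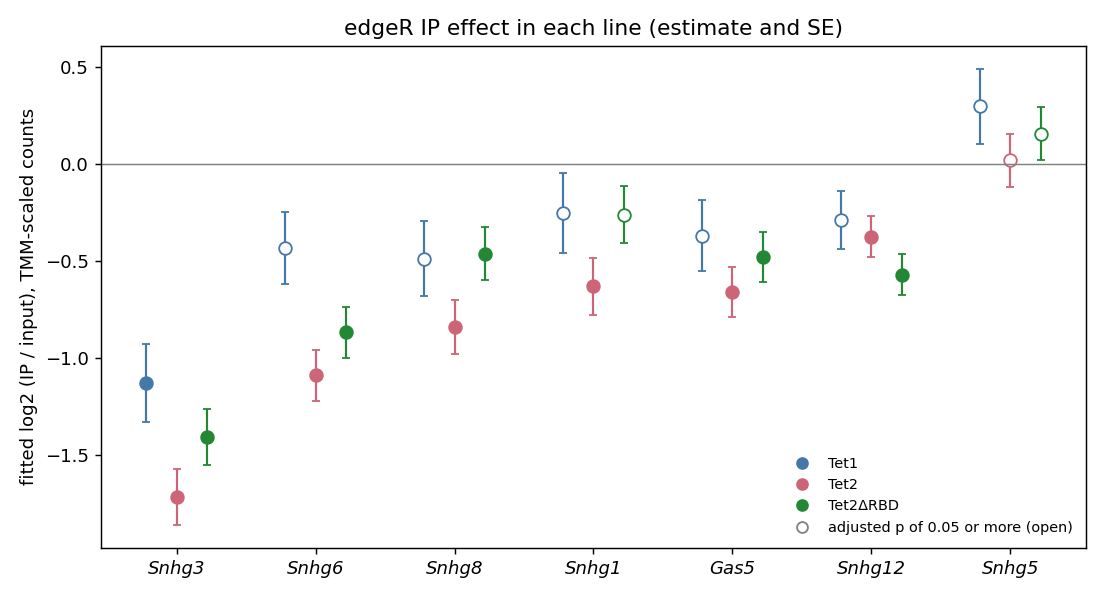
Fitted log2(IP/input) of TMM-scaled counts (vertical axis) with SE bars for the 7 hosts in Tet1, Tet2 and Tet2ΔRBD, filled where the edgeR adjusted p was under 0.05. Of the 21 estimates, 12 were filled and all of these were below 0, from -0.38 for Snhg12 in Tet2 to -1.72 for Snhg3 in Tet2.

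The recovery of the hosts did not differ between Tet2 and Tet2ΔRBD beyond the spread between replicates. In the contrast of the 2 IP effects in the same fit, 0 of 7 hosts and 3 of 13710 genes (0.0219%) passed edgeR's adjusted p of 0.05, and 0 of 7 hosts against 3.03% of tested genes had an unadjusted p under 0.05. The fitted log2 differences, Tet2 minus Tet2ΔRBD, were below 0 for 6 hosts, from -0.14 for Snhg5 to -0.38 for Snhg8, and 0.19 for Snhg12. The 95% intervals were -0.84 to 0.09 for Snhg8, -0.86 to 0.12 for Snhg1, -0.78 to 0.16 for Snhg3 and -0.16 to 0.55 for Snhg12. The intervals of Snhg8, Snhg1 and Snhg3 thus reached from near 0 to a recovery in Tet2 clearly below that in Tet2ΔRBD.

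The differences were unequal among the replicate numbers. For Snhg3, the log2(IP/input) of TPM in Tet2 minus that in Tet2ΔRBD was -0.69 and -0.51 for replicates 1 and 2 and 0.16 and -0.04 for replicates 3 and 4. For Snhg1 it was -0.38 and -0.78 and then -0.08 and -0.08, and for Snhg12 it had the other sign, 0.51 and 0.35 and then 0.10 and -0.03. In Gas5 and Snhg5, too, the differences of the early numbers were negative (-0.33 and -0.22, and -0.48 and -0.32), while those of replicates 3 and 4 were 0.01 and -0.00 in Gas5 and 0.16 and 0.26 in Snhg5. Snhg8 was lower in Tet2 for replicates 2, 3 and 4 (-0.82, -0.28 and -0.27) and Snhg6 for replicates 1, 2 and 3 (-0.20, -0.57 and -0.03). Replicates 1, 2 and the later numbers belong to different library sets, and the part of the set in these differences was not tested.

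**Figure D4:**
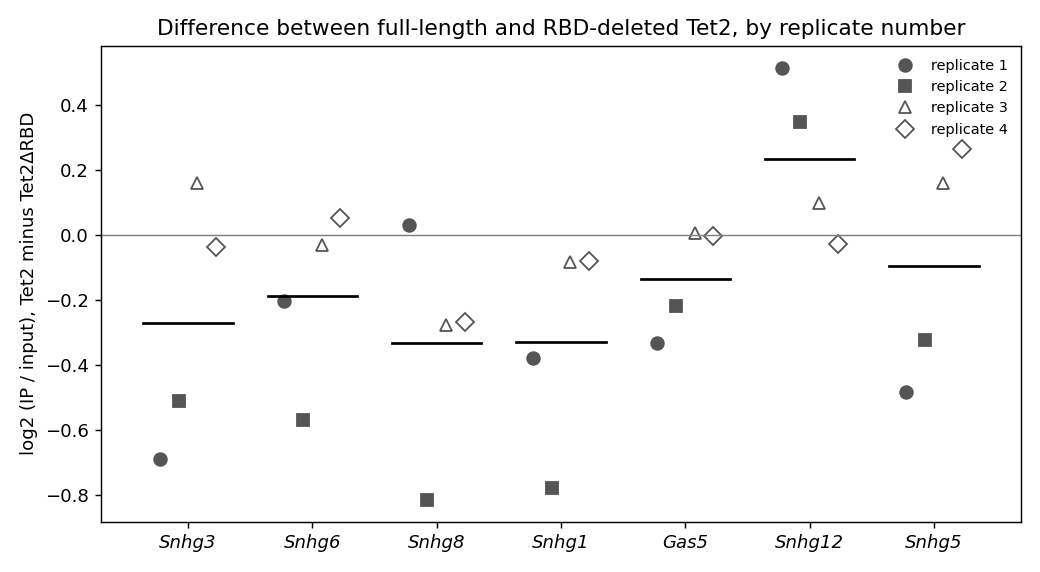
Difference in log2(IP/input), Tet2 minus Tet2ΔRBD (vertical axis, TPM + 1), for each host and replicate number, with black bars at the mean. Replicates 1 and 2 (filled) lay between -0.82 and 0.51 and replicates 3 and 4 (open) between -0.28 and 0.26.

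Tet1 and Tet2 were compared in the same way. The fitted log2 differences, Tet1 minus Tet2, were above 0 for all 7 hosts, from 0.09 for Snhg12 to 0.65 for Snhg6, but 0 of 7 hosts and 0 of 13710 genes passed edgeR's adjusted p of 0.05 (background 0%), and 517 genes (3.77%) had an unadjusted p under 0.05. Among these were Snhg6 (0.65, 95% interval 0.12 to 1.19, unadjusted p = 0.015 and adjusted p = 0.94 by edgeR) and Snhg3 (0.58, 95% interval 0.01 to 1.16, unadjusted p = 0.036 and adjusted p = 0.94 by edgeR). DESeq2 called 0 of 7 hosts and 13 genes. Within the library set that holds Tet1 together with replicates 3 and 4 of Tet2, the differences were 0.37 for Snhg6 and 0.39 for Snhg3, with adjusted p of 0.12 and 0.097, and 0 of 7 hosts passed while 280 genes did. The direction for Snhg12 was reversed by limma on TPM, at -0.08.

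Lower values in IP were also found in other noncoding snoRNA hosts. Of a list of 13 such genes, 12 were found, 5 by symbol and 7 under an older name, and Snhg14 was not matched. The list, too, was chosen with earlier results of these data known, so its counts are a description. By the edgeR test, 11 of 12 were lower in Tet2 IP than in input (background 18.5%), 9 of 12 in Tet2ΔRBD (12.1%) and 3 of 12 in Tet1 (3.18%), and 0 were higher in any line. Their median fitted log2 ratio was -1.12 in Tet2, -0.70 in Tet2ΔRBD and -0.65 in Tet1. Snhg4 and Dancr, a regulator of progenitor differentiation, were below input in 10 of 10 pairs and called lower in all 3 lines, with fitted log2 ratios in Tet2 of -1.40 for Snhg4 (edgeR adjusted p = 0.00055) and -1.44 for Dancr (adjusted p = 0.00015). Snhg17 was also called in all 3 lines (-0.65 in Tet2, adjusted p = 0.0022). Snhg15, Snhg16, Snhg18, Snhg20, Snhg7 and Zfas1 were called in Tet2 and Tet2ΔRBD, with ratios in Tet2 between -1.26 for Snhg18 and -0.60 for Snhg15. Snhg9 (-2.43, adjusted p = 0.023) and Snhg10 (-1.19, adjusted p = 0.038), both with mean inputs under 10 TPM, were called in Tet2 and in neither other line, and the difference between lines did not pass the test for either gene. Snhg11, with the lowest mean input of the list at 1.46 TPM, was at -0.04 in Tet2 (adjusted p = 0.88). Leaving out 1 pair, an alternative chosen after seeing the data, gave 9 to 11 calls in Tet2, 4 (without Tet2ΔRBD replicate 3) to 11 in Tet2ΔRBD and 0 (without either Tet1 pair) to 7 (without Tet2ΔRBD replicate 2) in Tet1. Without the pair block 0 were called in each line.

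Protein-coding hosts, mostly genes of ribosomal proteins and translation factors, were called in both directions. Of 22 such genes, 6 were lower and 3 higher in Tet2 IP, 4 lower and 1 higher in Tet2ΔRBD and 0 lower and 1 higher in Tet1, with median fitted log2 ratios of 0.04, 0.03 and 0.14. The share of all tested genes called lower was 18.5%, 12.1% and 3.18% for the same lines and that called higher 14.6%, 7.4% and 2.72%, so the counts of the coding hosts were near the background. The 4 lower calls in Tet2ΔRBD became 0 without its replicate 1 or 3 and 2 without its replicate 4. The largest ratios in Tet2 among those called were those of Rpl4 (1.97, adjusted p = 0.00025) and Nop56 (1.25, adjusted p = 0.024), a core box C/D protein that is itself a host, and that of Rps12 (-1.02, adjusted p = 0.0036). The share of hosts called lower in Tet2 was therefore 6 of 7 and 11 of 12 in the noncoding lists and 6 of 22 in the coding list. These counts are a description, and the difference between the lists was not tested. The lists were not matched for level or transcript length. Mean inputs were 59.0 to 281 TPM in the 7 hosts and 1.46 to 177 TPM in the other noncoding hosts. In the coding hosts they were 105 to 9493 TPM.

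**Figure D5:**
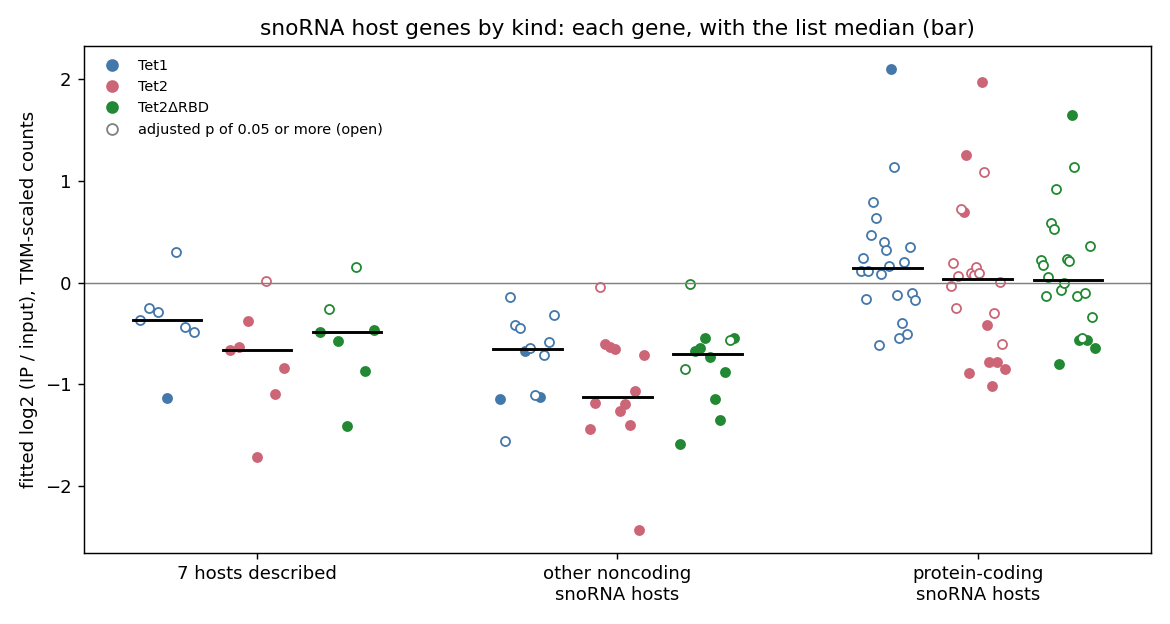
Fitted log2(IP/input) of TMM-scaled counts (vertical axis) for each snoRNA host gene by kind and line, filled where the edgeR adjusted p was under 0.05, with black bars at the list medians. The medians in Tet2 were -0.66 for the 7 hosts described, -1.12 for the 12 other noncoding hosts and 0.04 for the 22 coding hosts.

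Genes of the snoRNA pathway other than hosts were called in both directions, as 14.6% (higher) and 18.5% (lower) of all tested genes were in Tet2. These lists are short, and the counts are a description. Among 10 genes of box C/D particles, 3 were higher in Tet2 IP, including Nop58 (fitted log2 ratio 1.78, edgeR adjusted p = 0.038), Nufip1, an assembly factor (1.48, adjusted p = 0.016), and Nop56, and 2 were lower. Of 7 box H/ACA genes, 2 were higher and 3 lower in Tet2. The core proteins of the particle were split. Nop10 (-1.25, adjusted p = 0.00076), Gar1 (-0.92, adjusted p = 0.0015) and Nhp2 (-0.63, adjusted p = 0.017) were lower, while Dkc1, the pseudouridine synthase, was higher (0.57, adjusted p = 0.028) and was also called higher in Tet2ΔRBD (0.84, adjusted p = 0.0099) and Tet1 (1.54, adjusted p = 0.019). Dkc1 was named after its values were seen. Of 14 genes of nonsense-mediated decay, 4 were higher in Tet2, led by Upf2 (1.85, adjusted p = 0.014) and Smg1, the kinase of Upf1 (1.01, adjusted p = 0.0058), and 1 was lower, Magoh of the exon junction complex (-1.55, adjusted p = 0.00041). In Tet2ΔRBD 0 of these 14 were higher and 1 lower, and in Tet1 0 and 0.

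The hosts varied together only in part over the 10 pairs. Pearson correlations of log2(IP/input) between hosts, which share libraries and are given as a description, ranged from -0.37 (Snhg6 with Snhg12) to 0.83 (Gas5 with Snhg1), with a median of 0.39 over 21 combinations, and all 6 that involved Snhg12 were below 0. The 5 genes whose ratios followed the mean of the 7 hosts most closely, out of 8460 candidates with a mean input of at least 5 TPM, were Lyrm4, a factor of iron-sulphur cluster assembly (r = 0.975), Mrpl32, a mitochondrial ribosomal protein (r = 0.971), Rab9, a late endosomal GTPase (r = 0.961), Ube2n, a ubiquitin-conjugating enzyme (r = 0.959), and Faim, an inhibitor of apoptosis (r = 0.953).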

How the data were processed

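RIP-Seq was analysed in 20 libraries of mouse ESCs, grouped by the sample labels. The submitters' processing notes name FastQC, Bowtie2 (removal of ribosomal and transfer RNA reads), Trimmomatic and RSEM with build mm9. The authors deposited, for each gene, estimated counts (RSEM expected counts), which are not normalized, and a score that is the TPM with 1 added. This score was turned into TPM by subtracting 1. The deposited FPKM values were not used.

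Ratios of IP to input were formed within pairs of the same replicate number as log2 of TPM with a pseudocount of 1. Such ratios understate differences of low genes. Expected counts were rounded to whole numbers, scaled by TMM and tested with edgeR 4.0.16 (quasi-likelihood, R 4.3.3). The model held all 20 libraries, a term per pair and 1 IP term per line. Genes entered with 1 CPM or more in 2 or more libraries, and Benjamini-Hochberg adjustment covered every gene tested (threshold 0.05). The SE was derived from the F statistic of the quasi-likelihood test. The 95% intervals took a t distribution with 7 residual degrees of freedom, or 3 in the input fit with a replicate block. Intervals and edgeR p-values were thus not built alike and can disagree near the threshold, as for Snhg6 in Tet1 (unadjusted p = 0.039 by edgeR, interval -0.87 to 0.003). Inputs were tested in a separate fit of the 10 inputs. The fits were also run on simulated counts, drawn independently for each library with the same extra spread for every gene. The simulated inputs held no library sets, so they cannot show how the input fit behaves with such sets. Reads were split among similar transcripts by RSEM, so values of overlapping genes are uncertain, and counts of amplified reads carry only counting error in their precision.

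Deviations of IP and input from their group means correlated between the same numbers at 0.27 in Tet1 and at 0.58 or more in Tet2 and Tet2ΔRBD. Between numbers 3 and 4, which share a library set, they correlated as highly (0.61 to 0.80), and between other numbers at 0.01 or less, so the correlation does not separate the pairs 3 and 4. Deviations from a group mean sum to 0, which by itself lowers the correlations between different numbers. In Tet1, with 2 pairs, those are fixed at -0.27, the mirror of the value of the same numbers. Replicates 3 and 4 differed by more than sampling noise, though far less than other numbers, and were counted as separate, with merging as an alternative. The members and all gene lists (other noncoding and coding snoRNA hosts, box C/D and box H/ACA genes, decay factors, markers) were chosen with earlier results of these data known. Of 92 list entries, 81 matched by symbol, 10 by accession or older symbol and 1 not. Named genes were the members, all other noncoding hosts found, snoRNAs inside the members, up to 3 genes of each further list with the largest fitted Tet2 ratio past the threshold, and the 5 genes most like the members. Genes that overlap a member were also named. Alternatives were limma 3.58.1 on log2 TPM with a pseudocount of 1 or 0.1, DESeq2 1.42.0, no filter, no pair block, replicates 3 and 4 merged, and leaving out each pair.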

Additional observations from a re-analysis of the deposited data

Results flagged for a closer look

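Among 42 groups of 4 libraries (7 hosts in IP and input of Tet2 and Tet2ΔRBD, and their log2 ratios), 2 had a library set far from the other 3, judged by the gap to the nearest library over the whole range against Dixon's critical value at the 95% level. Chance flags about 1 group in 20. Gas5 in Tet2 IP was at 33.3 TPM in replicate 2 against 86.2 to 95.1 TPM in the others (gap over range 0.856). Snhg6 in Tet2 IP was at 29.4 TPM in replicate 2 against 144 to 160 TPM (0.878). The input of replicate 2 was low as well, at 34.8 TPM for Gas5 and 60.1 TPM for Snhg6, and a cause was not tested. Without this pair the fitted log2 ratios of Gas5 and Snhg6 in Tet2 stayed past the threshold.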

How the results depend on the processing

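The number of the 7 hosts called by edgeR (1 in Tet1, 6 in Tet2, 5 in Tet2ΔRBD, all lower) was within 1.5 times of these values with DESeq2 and without the filter on low counts. Without the pair block 0 hosts were called in each line. With limma on TPM + 0.1 the count was 3 in Tet2, and with limma at either pseudocount it was 3 in Tet2ΔRBD (2 lower and Snhg5 higher). With replicates 3 and 4 merged it was 3 in Tet2ΔRBD. Leaving out 1 pair gave 0 to 2 in Tet1 (0 without either Tet1 pair, 2 without Tet2 replicate 2), 5 to 6 in Tet2 and 3 to 6 in Tet2ΔRBD (3 without its replicate 1, 3 or 4). Centred on the median expressed gene, the median log2(IP/input) of the hosts was -0.59 in Tet2 and -0.40 in Tet2ΔRBD. No setting called a host for a difference between lines or inputs, and a replicate block in the input test also gave 0 of 7 hosts. The causes of these shifts were not tested.

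Directions that turned were all of values that had not passed. By limma, Snhg1 in Tet2ΔRBD was 0.0167 at a pseudocount of 1 and 0.0172 at 0.1, and Snhg12 for Tet1 minus Tet2 was -0.0828 and -0.0835. Snhg5 for Tet2 minus Tet2ΔRBD was 0.0335 without the pair block. Leaving out 1 pair gave ranges of -0.0344 to 0.107 for Snhg5 in Tet2 IP, and, for Tet2 minus Tet2ΔRBD, -0.256 to 0.000117 for Gas5 and -0.272 to 0.0137 for Snhg5. For Tet2ΔRBD input against Tet2 input the ranges were -0.464 to 0.132 for Gas5, -0.496 to 0.0363 for Snhg1, -0.616 to 0.00606 for Snhg3, -0.401 to 0.185 for Snhg5, -0.576 to 0.0741 for Snhg6 and -0.332 to 0.00985 for Snhg12.

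Counts over all genes moved further. For Tet1 IP, 809 genes became 1578 with DESeq2, 513 and 332 with limma, 289 with merged replicates, 0 without the block and 0 to 1460 without 1 pair. For Tet2 IP, 4540 became 375 without the block and 2686 to 5474 without 1 pair, and for Tet2ΔRBD IP, 2674 became 46 without the block, 940 with merged replicates and 790 to 3417 without 1 pair. For Tet2 minus Tet2ΔRBD, 3 became 28 with DESeq2, 6 without the filter, 0 without the block or with merged replicates and 0 to 14 without 1 pair. For Tet1 minus Tet2, 0 became 13 with DESeq2, 6 and 1 with limma and 280 within 1 library set. For the inputs, 0 became 16 with DESeq2, 2 and 3 with limma and 5 with the replicate block. Of 12 other noncoding hosts, the number called lower was 8 to 9 in Tet2, 5 to 6 in Tet2ΔRBD and 1 in Tet1 with limma, and 10, 4 and 1 with merged replicates. Among 22 coding hosts it was 0 without the block in each line, 2 with limma and 0 with merged replicates in Tet2ΔRBD, and 1 in Tet1 without Tet2 replicate 2. The settings for these lists were chosen after seeing the data.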
